A study of Homo sapiens with 8 samples.

Results

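Interferon-stimulated genes were followed in KYSE150, an esophageal squamous cell carcinoma cell line, as 40 genes picked by symbol among the 61517 genes of the count table. Messenger RNA selected by its poly(A) tail was sequenced in 8 libraries, 2 for each of 4 groups. The groups were hypoxia with sodium oxamate and sodium lactate, hypoxia with sodium oxamate, hypoxia alone, and normoxia. Oxamate inhibits lactate dehydrogenase, and lactate was read from an abbreviation in the labels together with their treatment protocol. The labels state no oxygen level, dose or time, and no lactate group without oxamate and no oxamate group in normoxia was analysed here. All groups are the same line, maintained in serum-containing medium, and whether the pair of libraries in a group came from different culture dishes is unstated. The spread behind each p-value is that between sequenced libraries, and it may be technical.

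Interferons are secreted alarm signals of viral infection. Type I and type III interferons act through the kinases JAK1 and TYK2 on STAT proteins, which join IRF9 in the transcription factor complex ISGF3. ISGF3 binds the interferon-stimulated response element (ISRE), while signals of interferon gamma act through the gamma-activated site (GAS). The products block virus entry, sense or degrade foreign RNA, and modify host proteins. Many of these genes are also transcribed at a low basal level without added interferon. The labels name no added interferon, and levels were measured here under the conditions of the 4 groups.

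Library totals ran from 21845676 to 29406061 counts. Unless another scale is named, levels are in CPM, the counts scaled to a common library size by TMM, a normalization that corrects for differences in RNA composition. Of 10 markers of squamous epithelium, 9 or all were detected in every library and their summed level was 3104 to 5051 CPM, with SOX2 at 0 in both libraries with oxamate and lactate. The 10 leukocyte markers summed to 2.23 to 6.86 CPM, and MS4A1, CLEC4C and LILRA4 were at 0 in every library. The leukocyte sum was 4.32 and 5.01 CPM with oxamate and lactate, 3.48 and 3.08 CPM with oxamate, 6.65 and 6.86 CPM in hypoxia alone and 2.23 and 3.26 CPM in normoxia. The 8 markers of fibroblasts and endothelium summed to 1.47 and 1.67 CPM with oxamate and lactate, 1.55 and 2.63 CPM with oxamate, 10.2 and 9.75 CPM in hypoxia alone and 3.79 and 3.76 CPM in normoxia. PDGFRA was at 0 throughout, and COL1A1 made up most of the sum in hypoxia alone. Both sums were highest in hypoxia alone, as were IRF9, IFIT1 and MX1 below, and their part in the results was not tested. In RNA from bulk cultures, fewer cells that express a gene and less of its RNA per cell cannot be told apart.

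Over all 8 libraries of the 4 groups, treated and untreated, levels in the set were uneven. A total of 31 of the 40 genes had enough counts to be tested, and 9 did not, with 0 to 31 counts summed over all 8 libraries. CMPK2, encoding a mitochondrial nucleotide kinase, had 0 counts in every library, against a floor of 3 counts that corresponds to 0.0948 to 0.153 CPM. IFI44L had 1 count in all, XAF1 had 3, MX2 had 7, IRF7 had 12, SAMD9L had 19, EPSTI1 had 22, and BST2 (tetherin) and OAS2 had 31 each. Per kilobase of exon, the scale on which genes can be compared, IFITM3 stood highest with a mean of 383 CPM per kb over all libraries. IFITM3 blocks the entry of viruses at endosomal membranes. LGALS3BP, a secreted glycoprotein that binds galectins, followed at 69.1 CPM per kb and ISG15, a ubiquitin-like modifier, at 24.3 CPM per kb. SAMD9 and OAS3 shared a mean of 11.3 CPM per kb, although their libraries ranged widely. The median of the 31 tested genes was 2.81 CPM per kb, and 8 of them were under 1 CPM per kb, among them MX1 at 0.184 and OAS1 at 0.162 CPM per kb.

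**Figure D1:**
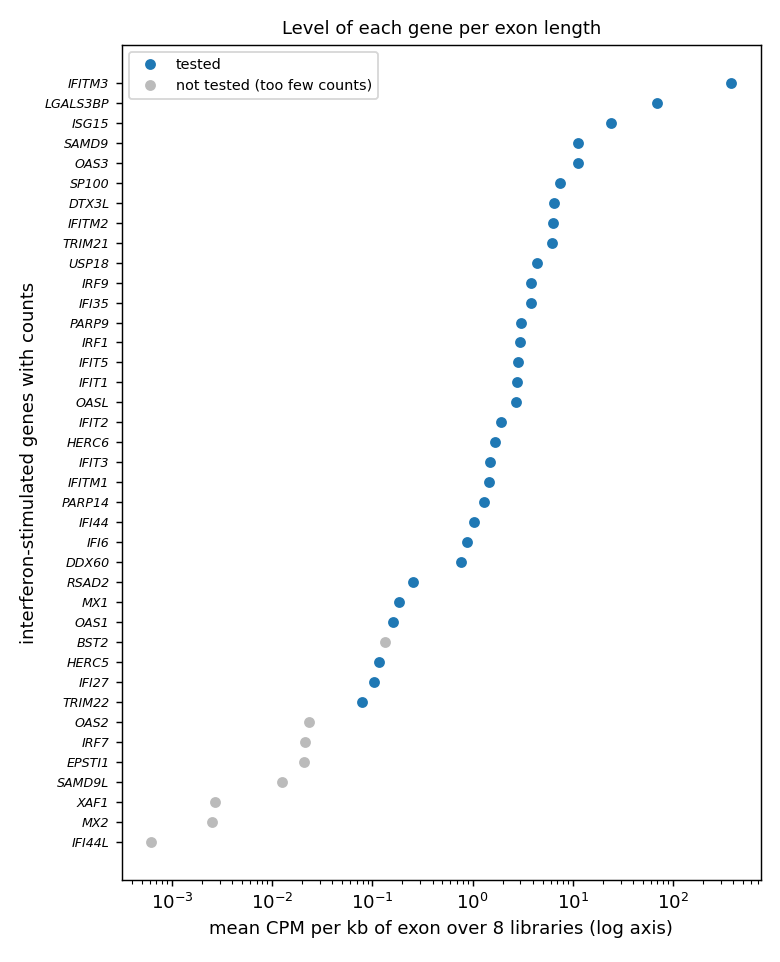
Mean level over 8 libraries of the 39 interferon-stimulated genes with at least 1 count, in CPM per kilobase of exon on a log axis, ordered from high to low. Blue points are the 31 tested genes and grey points are genes with too few counts to test. IFITM3, at 383 CPM per kb, stands far above the median of 2.81 CPM per kb.

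The promoter windows of 6 genes and the site shared by a gene pair are shown because they carry the elements through which interferon signals and oxygen are known to act, and because these genes moved in different directions below. RefSeq promoters on GRCh38.p14 were at hand for 32 of the 40 genes, as windows of 250 bases before to 50 bases after a start. USP18, OASL, OAS2, TRIM22, MX2, IFIT2, IFITM2 and IRF7 were not among them. Each line gives 150 bases, 5′ to 3′ on the gene's strand and ending just before the start. Capitals mark matches to the ISRE-like letters (GAAA, any 2 bases, then GAAA), to the GAS-like letters TTCNNNGAA, or to ACGTG or GCGTG, the core of the hypoxia response element, each searched on both strands.
IFIT1, chr10:89392473-89392622, plus strand: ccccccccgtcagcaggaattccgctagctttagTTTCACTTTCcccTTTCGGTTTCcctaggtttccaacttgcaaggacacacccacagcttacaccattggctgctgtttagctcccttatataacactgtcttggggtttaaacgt
IFIT5, chr10:89414418-89414567, plus strand: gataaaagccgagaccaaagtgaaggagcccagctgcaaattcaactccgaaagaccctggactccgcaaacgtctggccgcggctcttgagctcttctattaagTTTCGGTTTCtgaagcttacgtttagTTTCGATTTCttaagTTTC
ISG15, chr1:1013347-1013496, plus strand: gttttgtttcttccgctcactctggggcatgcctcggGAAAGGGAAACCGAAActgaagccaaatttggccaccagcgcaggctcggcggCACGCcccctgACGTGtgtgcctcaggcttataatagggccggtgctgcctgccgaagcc
SAMD9, chr7:93117980-93118129, minus strand: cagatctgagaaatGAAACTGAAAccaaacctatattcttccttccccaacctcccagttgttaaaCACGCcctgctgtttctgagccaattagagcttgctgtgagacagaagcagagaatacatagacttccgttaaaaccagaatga
PARP14, chr3:122680689-122680838, plus strand: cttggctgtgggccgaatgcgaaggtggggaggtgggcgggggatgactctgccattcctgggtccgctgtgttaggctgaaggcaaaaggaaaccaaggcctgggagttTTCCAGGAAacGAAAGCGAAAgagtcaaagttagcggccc
IRF9, chr14:24161115-24161264, plus strand: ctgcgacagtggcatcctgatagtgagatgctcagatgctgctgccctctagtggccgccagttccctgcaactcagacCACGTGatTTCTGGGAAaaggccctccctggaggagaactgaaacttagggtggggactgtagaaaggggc
PARP9 and DTX3L, chr3:122564322-122564351, plus strand: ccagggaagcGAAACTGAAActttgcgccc
IFIT1 holds ISRE-like matches at -116 to -107 and at -103 to -94, counted back from -1 at the base before the start. In IFIT5 the last of its 3 ISRE-like matches runs over the start. ISG15 has a pair of overlapping ISRE-like matches at -113 to -104 and at -107 to -98, and hypoxia response element cores at -60 to -56 and at -49 to -45. IRF9 has no ISRE-like match in the window. It carries a GAS-like match at -63 to -55 next to overlapping hypoxia response element cores on opposite strands, at -71 to -67 and at -70 to -66. PARP9 and DTX3L are transcribed in opposite directions from overlapping starts, and the 30 bases shown for them hold a single ISRE-like match that lies in the windows of both genes, across the RefSeq start of DTX3L.

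**Figure D2:**
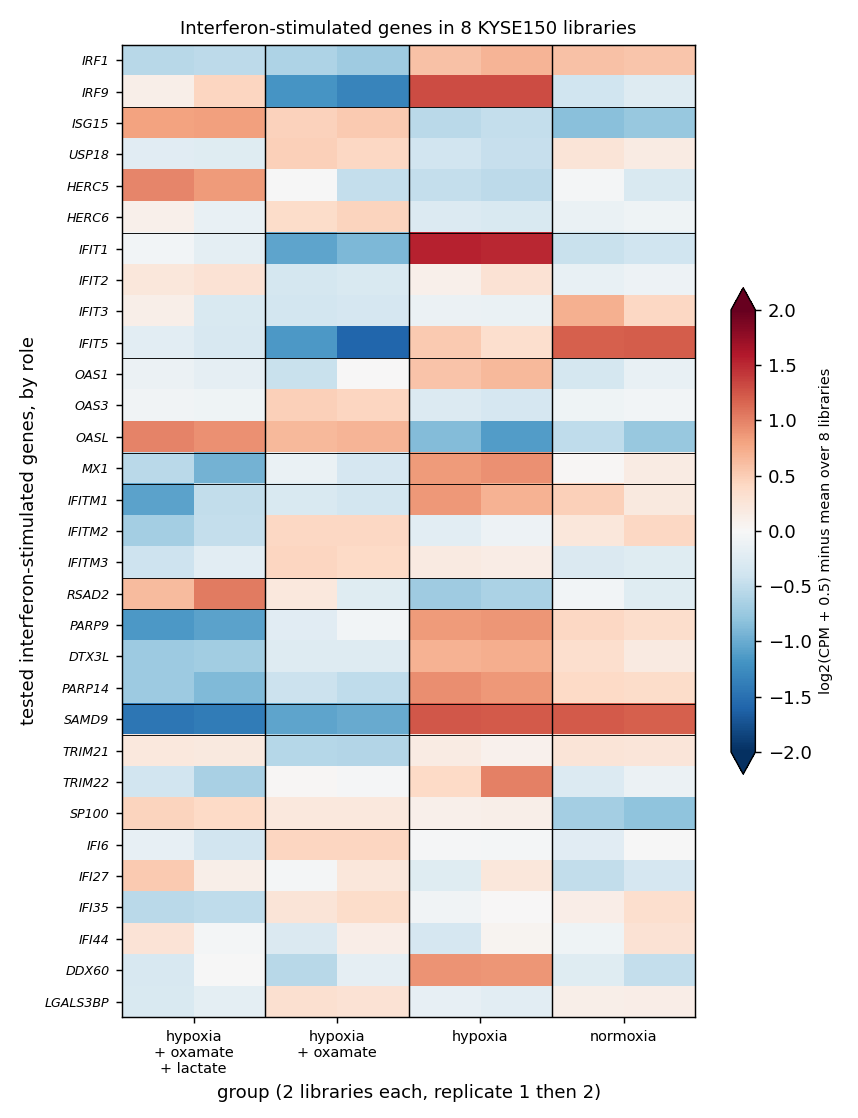
Log2(CPM + 0.5) of the 31 tested genes minus each gene's mean over 8 libraries, with groups in columns (2 libraries each) and genes in rows by role; red is above and blue below the mean. IRF9 and IFIT1 are darkest red in hypoxia alone, SAMD9 is blue in all 4 libraries with oxamate, and ISG15 and OASL are red in those 4 libraries.

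Transcription factors were described before their targets. IRF9, the DNA-binding partner of STAT2 in ISGF3, was at 12.9 and 16.1 CPM with oxamate and lactate, at 4.92 and 4.41 CPM with oxamate, at 29.8 and 30.1 CPM in hypoxia alone, and at 8.82 and 9.80 CPM in normoxia. The 4 groups did not overlap, hypoxia alone was highest and oxamate lowest. Libraries of compared groups were also apart for most tested genes, in 87.7% for hypoxia over normoxia, 90.3% for oxamate over hypoxia alone, 79.3% for lactate with oxamate over oxamate and 88.5% for oxamate with lactate over hypoxia alone. IRF9 rose in hypoxia over normoxia (log2 fold change 1.68 ± 0.095 SE, adjusted p = 4.12e-13, n = 2 per group), fell with oxamate over hypoxia alone (-2.68 ± 0.11, adjusted p = 7.08e-16), and was higher with lactate and oxamate than with oxamate (1.64 ± 0.12, adjusted p = 6.52e-11). It stayed below hypoxia alone with lactate and oxamate (-1.03 ± 0.093, adjusted p = 1.06e-09). A read-through gene, AL136295.5, shares 48.4% of the exon bases of IRF9 on the same strand. Over all libraries it was at 22.4% of the level of IRF9. It was at 2.35 ± 0.354 CPM in hypoxia alone against 4.55 ± 0.619 CPM in normoxia (SD), the opposite order to IRF9. AL136295.5 was at 3.39 ± 1.26 CPM with oxamate and lactate and 3.13 ± 0.826 CPM with oxamate (SD). IRF9 averaged 4.66 CPM with oxamate, where the levels of the pair were nearest, and the split of reads between them was not tested.

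IRF1, an activator of basal and interferon gamma responses, was at 14.5 and 14.8 CPM with oxamate and lactate, at 13.9 and 12.9 CPM with oxamate, at 32.6 and 34.9 CPM in hypoxia alone, and at 32.4 and 31.8 CPM in normoxia. Both groups with oxamate lay below both groups without it. IRF1 fell with oxamate over hypoxia alone (-1.33 ± 0.073, adjusted p = 1.52e-13) and with oxamate and lactate over hypoxia alone (-1.20 ± 0.074, adjusted p = 1.45e-12). Hypoxia over normoxia gave 0.07 ± 0.064 and did not pass (adjusted p = 0.31), although it passed with upper quartile normalization (0.18, adjusted p = 0.0161). Lactate with oxamate over oxamate gave 0.13 ± 0.085 (adjusted p = 0.184). On the opposite strand IRF1 shares 22.0% of its exon bases with C5orf56, at 6.78% of its level, and 6.01% with AC116366.3, at 98.6% of its level, and strand was not stated for the counting. IRF7, the factor that amplifies interferon production, had at most 3 counts in any library.

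The ISG15 pathway attaches the ubiquitin-like protein ISG15 to other proteins. ISG15 was at 36.3 and 36.6 CPM with oxamate and lactate, at 28.5 and 29.8 CPM with oxamate, at 13.98 and 14.6 CPM in hypoxia alone, and at 11.3 and 12.0 CPM in normoxia. No groups overlapped, and normoxia was lowest. ISG15 rose in hypoxia over normoxia (0.30 ± 0.081, adjusted p = 0.00241) and with oxamate over hypoxia alone (1.03 ± 0.073, adjusted p = 1.4e-11). Lactate with oxamate over oxamate gave 0.32 ± 0.067 (adjusted p = 0.000216). That call ended with upper quartile normalization (0.13, adjusted p = 0.0922) and without oxamate replicate 1 (0.19, adjusted p = 0.0606), and the value was 0.20 with the stricter count filter. ISG15 rose with oxamate and lactate over hypoxia alone by 1.35 ± 0.072.

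USP18, the protease that removes ISG15 and damps signalling at the type I receptor, was at 7.68 and 7.58 CPM with oxamate and lactate, at 12.8 and 12.3 CPM with oxamate, at 6.89 and 6.51 CPM in hypoxia alone, and at 11.0 and 10.2 CPM in normoxia. USP18 was therefore high with oxamate and in normoxia, and low in the other groups. It fell in hypoxia over normoxia (-0.66 ± 0.11, adjusted p = 7.45e-06), rose with oxamate over hypoxia alone (0.91 ± 0.10, adjusted p = 5.47e-08) and fell with lactate and oxamate over oxamate (-0.72 ± 0.11, adjusted p = 3.41e-06). HERC6, an E3 ligase gene next to HERC5, was at 10.4 and 8.64 CPM with oxamate and lactate, at 12.6 and 13.3 CPM with oxamate, at 7.80 and 7.71 CPM in hypoxia alone, and at 8.74 and 9.01 CPM in normoxia. HERC6 rose with oxamate over hypoxia alone (0.74 ± 0.11, adjusted p = 1.68e-06) and fell with lactate and oxamate over oxamate (-0.45 ± 0.11, adjusted p = 0.000865). HERC5, the main ISG15 ligase in human cells, was scarce, with 28 and 31 counts with oxamate and lactate, 12 and 5 with oxamate, 6 and 5 in hypoxia alone, and 12 and 9 in normoxia. It was highest with oxamate and lactate, over oxamate (1.98 ± 0.48, adjusted p = 0.00107) and over hypoxia alone (2.79 ± 0.52, adjusted p = 4.73e-05).

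IFIT genes, which lie together on chromosome 10, encode proteins that bind foreign or uncapped RNA, and they differed among themselves. IFIT1 was at 9.71 and 8.76 CPM with oxamate and lactate, at 4.65 and 5.22 CPM with oxamate, at 30.6 and 29.7 CPM in hypoxia alone, and at 7.37 and 7.62 CPM in normoxia. Hypoxia alone stood clear of every other group. IFIT1 rose in hypoxia over normoxia by 2.01 ± 0.089 (adjusted p = 5.44e-15), a 4.02-fold difference. It fell with oxamate over hypoxia alone (-2.61 ± 0.098, adjusted p = 1.52e-16) and was higher with lactate and oxamate than with oxamate (0.90 ± 0.12, adjusted p = 5.13e-07). It was lower with oxamate and lactate than in hypoxia alone (-1.71 ± 0.091, adjusted p = 9.62e-14).

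IFIT5 was highest in normoxia. It was at 8.03 and 7.38 CPM with oxamate and lactate, at 3.95 and 2.79 CPM with oxamate, at 13.7 and 11.9 CPM in hypoxia alone, and at 22.1 and 22.4 CPM in normoxia. In contrast to IFIT1, IFIT5 fell in hypoxia over normoxia (-0.79 ± 0.099, adjusted p = 2.51e-07). It fell further with oxamate over hypoxia alone (-1.92 ± 0.13, adjusted p = 1.01e-11) and was higher with lactate and oxamate than with oxamate (1.18 ± 0.15, adjusted p = 3.38e-07). IFIT2 moved less, at 9.20 and 9.66 CPM with oxamate and lactate, 6.00 and 6.23 CPM with oxamate, 8.48 and 9.68 CPM in hypoxia alone, and 7.03 and 7.30 CPM in normoxia. Its difference for oxamate over hypoxia alone was -0.57 ± 0.12 (adjusted p = 0.000157). For lactate with oxamate over oxamate it was 0.63 ± 0.12 (adjusted p = 9.98e-05). Its rise in hypoxia over normoxia (0.34 ± 0.11, adjusted p = 0.0105) was lost with DESeq2 (adjusted p = 0.0929), without normoxia replicate 1 (0.31, adjusted p = 0.0755) and without hypoxia replicate 2 (0.24, adjusted p = 0.131). IFIT2 shares 65 exon bases with LIPA on the opposite strand, and LIPA was at 1030% of the level of IFIT2. IFIT3, which stabilizes the IFIT1 complex, fell in hypoxia over normoxia (-0.77 ± 0.18, adjusted p = 0.000507). It passed in none of the other 3 comparisons, where its adjusted p lay between 0.202 and 0.854. Without oxamate and lactate replicate 2, lactate with oxamate over oxamate gave 0.55 (adjusted p = 0.0387), against 0.30 with all libraries.

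The oligoadenylate synthetases make the second messenger that switches on RNase L when they bind double-stranded RNA. OAS3 was at 86.8 and 86.6 CPM with oxamate and lactate, at 127 and 124 CPM with oxamate, at 75.9 and 72.3 CPM in hypoxia alone, and at 85.9 and 88.5 CPM in normoxia. Oxamate without lactate gave the highest level. OAS3 fell in hypoxia over normoxia (-0.23 ± 0.042, adjusted p = 3.34e-05; -0.13 with upper quartile normalization), rose with oxamate over hypoxia alone (0.76 ± 0.041, adjusted p = 1.32e-13) and fell with lactate and oxamate over oxamate (-0.53 ± 0.042, adjusted p = 1.74e-10). The remaining difference with oxamate and lactate over hypoxia alone, 0.23 ± 0.043, was 0.14 with the stricter count filter and turned to -0.032 with upper quartile normalization.

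OASL, a catalytically inactive relative that enhances RNA sensing, was at 16.6 and 15.8 CPM with oxamate and lactate, at 13.1 and 13.4 CPM with oxamate, at 4.24 and 3.48 CPM in hypoxia alone, and at 5.58 and 4.58 CPM in normoxia. Both groups with oxamate were above both without it. It rose with oxamate over hypoxia alone (1.77 ± 0.13, adjusted p = 1.37e-11) and with oxamate and lactate over hypoxia alone (2.06 ± 0.12, adjusted p = 9.18e-13). Its call for lactate with oxamate over oxamate (0.29 ± 0.11, adjusted p = 0.0207) ended with RLE size factors (0.24), upper quartile normalization (0.10), the stricter count filter (0.18), DESeq2 (0.24), and without oxamate replicate 1 (0.18), oxamate replicate 2 (0.21) or oxamate and lactate replicate 1 (0.26). Its call in hypoxia over normoxia (-0.39 ± 0.14, adjusted p = 0.0177) ended with upper quartile normalization (-0.28), DESeq2, and without normoxia replicate 1 or hypoxia replicate 2 (-0.25 each). OAS1 went the other way from OAS3 at a low level, with 13 and 15 counts with oxamate and lactate, 11 and 19 with oxamate, 40 and 42 in hypoxia alone, and 13 and 20 in normoxia. It rose in hypoxia over normoxia (1.33 ± 0.38, adjusted p = 0.00369). It fell with oxamate over hypoxia alone (-1.25 ± 0.39, adjusted p = 0.00585), a call that ended with DESeq2 (-1.17, adjusted p = 0.0628) and without oxamate replicate 1 (-0.77, adjusted p = 0.115).

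MX1, a dynamin-like GTPase that traps viral nucleoproteins, had 16 and 12 counts with oxamate and lactate, 32 and 25 with oxamate, 87 and 88 in hypoxia alone, and 39 and 52 in normoxia. It rose in hypoxia over normoxia (0.96 ± 0.26, adjusted p = 0.00234) and fell with oxamate over hypoxia alone (-1.42 ± 0.28, adjusted p = 7.75e-05). MX1 fell by 2.24 ± 0.31 on the log2 scale with oxamate and lactate over hypoxia alone. Its call for lactate with oxamate over oxamate (-0.82 ± 0.35, adjusted p = 0.0461) was lost with the replicate number as a block (-0.81, adjusted p = 0.0569), without a count filter, with DESeq2, when only the compared groups were fitted, and without either normoxia library (-0.81 each), either hypoxia library (-0.81 each), oxamate replicate 1 (-0.76) or oxamate and lactate replicate 2 (-0.46). RSAD2, which encodes viperin, an enzyme that makes a chain-terminating nucleotide, had 39 and 68 counts with oxamate and lactate, 35 and 21 with oxamate, 14 and 15 in hypoxia alone, and 28 and 27 in normoxia. RSAD2 was higher with oxamate and lactate than in hypoxia alone (2.24 ± 0.36, adjusted p = 6.89e-06). Its call in hypoxia over normoxia (-0.91 ± 0.38, adjusted p = 0.0393) was lost without any one of the 4 libraries compared (-0.77 without normoxia replicate 1, -1.05 without normoxia replicate 2, -0.84 without hypoxia replicate 1 and -0.98 without hypoxia replicate 2), and also with upper quartile normalization, DESeq2 or no count filter. The call for oxamate over hypoxia alone (1.13 ± 0.38, adjusted p = 0.0102) was lost without hypoxia replicate 1 (1.06) or oxamate replicate 1 (0.87). The call for lactate with oxamate over oxamate (1.11 ± 0.33, adjusted p = 0.00505) was lost without oxamate replicate 2 (0.72) or oxamate and lactate replicate 2 (0.85).

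IFITM genes sit side by side on chromosome 11 and encode similar small membrane proteins, so the split of reads among them is uncertain. IFITM3 was at 378 and 437 CPM with oxamate and lactate, at 678 and 667 CPM with oxamate, at 575 and 560 CPM in hypoxia alone, and at 412 and 429 CPM in normoxia. It was highest with oxamate, and the libraries with oxamate and lactate spanned those of normoxia. IFITM3 rose in hypoxia over normoxia (0.43 ± 0.060, adjusted p = 0.000304) and with oxamate over hypoxia alone (0.25 ± 0.060, adjusted p = 0.00593), and fell with lactate and oxamate over oxamate (-0.72 ± 0.061, adjusted p = 1.46e-05). With oxamate and lactate over hypoxia alone it fell (-0.48 ± 0.061, adjusted p = 0.000162; -0.74 with upper quartile normalization). IFITM2 was at 5.64 and 6.56 CPM with oxamate and lactate, at 12.6 and 12.6 CPM with oxamate, at 7.97 and 8.69 CPM in hypoxia alone, and at 11.0 and 12.7 CPM in normoxia. Unlike IFITM3, IFITM2 fell in hypoxia over normoxia (-0.51 ± 0.11, adjusted p = 0.000205). Both fell with lactate and oxamate over oxamate, IFITM2 by 1.04 ± 0.12 on the log2 scale. IFITM2 gave -0.44 ± 0.12 with oxamate and lactate over hypoxia alone (adjusted p = 0.00267; -0.70 with upper quartile normalization). IFITM1, which shares 32.5% of its exon bases with the annotated IFITM2, was at 0.631 ± 0.318 CPM with oxamate and lactate, 1.01 ± 0.0525 CPM with oxamate, 2.78 ± 0.295 CPM in hypoxia alone and 1.92 ± 0.341 CPM in normoxia (SD). It fell with oxamate over hypoxia alone (-1.46 ± 0.30, adjusted p = 0.000134), the opposite direction to IFITM2 (0.60 ± 0.11, adjusted p = 3.27e-05). IFITM1 did not pass for lactate with oxamate over oxamate (-0.63 ± 0.37, adjusted p = 0.144) but did without oxamate and lactate replicate 2 (-1.29, adjusted p = 0.0263).

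**Figure D3:**
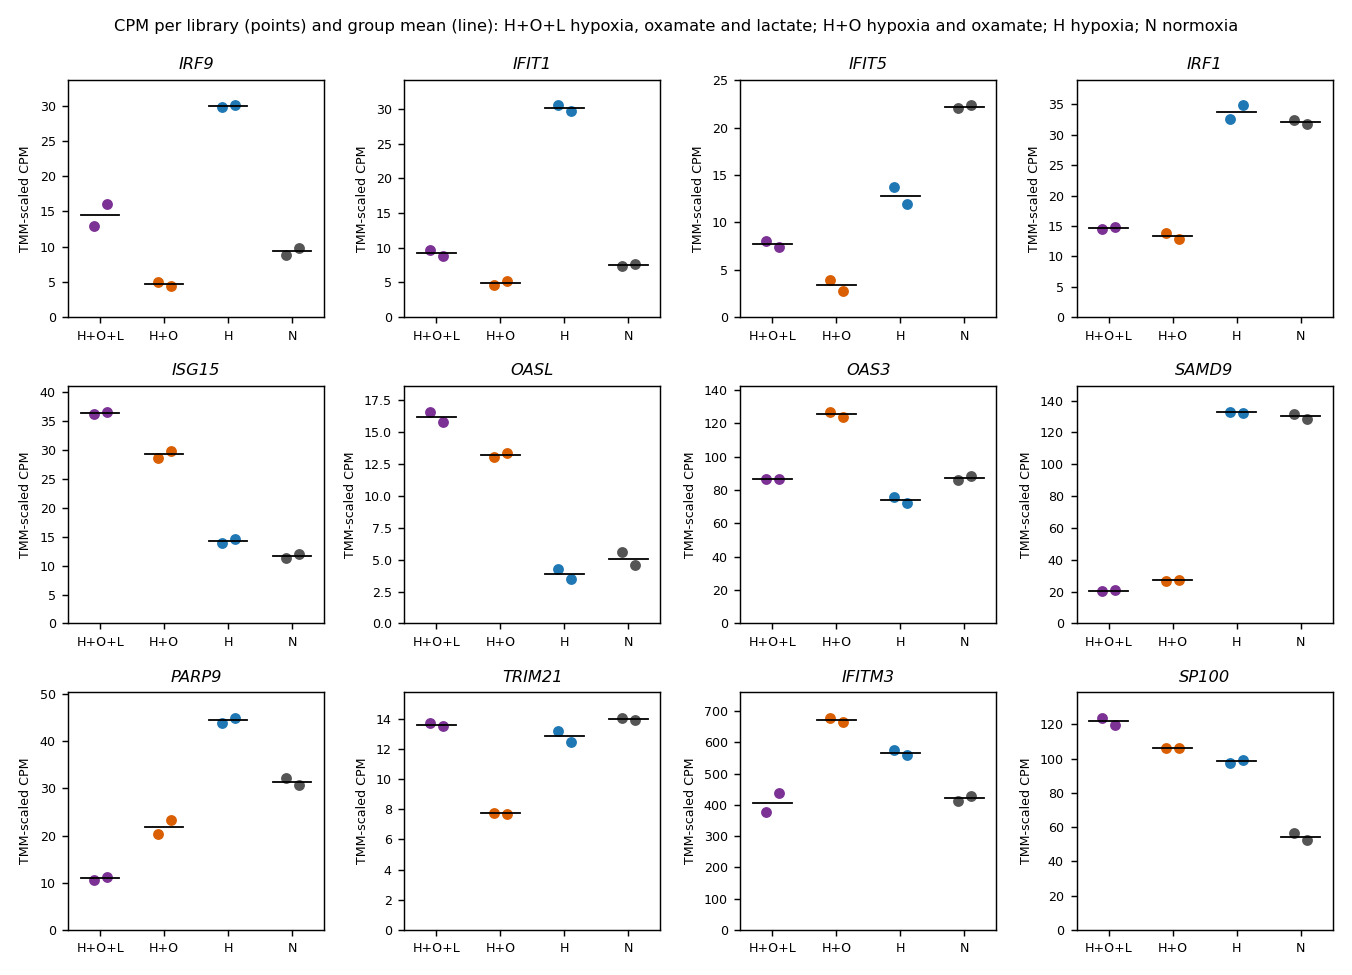
CPM of 12 interferon-stimulated genes in each library (points) with the group mean (line), each axis starting at 0; H+O+L is hypoxia with oxamate and lactate, H+O hypoxia with oxamate, H hypoxia alone and N normoxia. IRF9 and IFIT1 are highest in H, SAMD9 drops to 20.3 to 27.5 CPM in the libraries with oxamate, and TRIM21 is low in H+O alone, at 7.78 and 7.69 CPM.

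PARP9, DTX3L and PARP14 lie within a short stretch of chromosome 3 and encode an inactive ADP-ribosyltransferase, the E3 ligase that pairs with it, and a mono-ADP-ribosyltransferase. PARP9 was at 10.6 and 11.2 CPM with oxamate and lactate, at 20.4 and 23.3 CPM with oxamate, at 43.9 and 44.9 CPM in hypoxia alone, and at 32.1 and 30.8 CPM in normoxia. DTX3L was at 21.2 and 21.6 CPM with oxamate and lactate, at 29.5 and 29.5 CPM with oxamate, at 57.8 and 58.8 CPM in hypoxia alone, and at 44.5 and 39.9 CPM in normoxia. PARP14 was at 7.22 and 6.36 CPM with oxamate and lactate, at 8.90 and 8.46 CPM with oxamate, at 23.6 and 22.8 CPM in hypoxia alone, and at 16.2 and 15.8 CPM in normoxia. All 3 had the same order of groups, with hypoxia alone highest, normoxia next, oxamate below it and oxamate with lactate lowest, and without overlap between neighbours. In hypoxia over normoxia PARP9 rose by 0.50 ± 0.064, DTX3L by 0.47 ± 0.055 and PARP14 by 0.54 ± 0.080. With oxamate over hypoxia alone PARP9 fell by 1.03 ± 0.068, DTX3L fell by 0.98 ± 0.059 and PARP14 fell by 1.42 ± 0.089 on the log2 scale. Lactate with oxamate over oxamate gave -1.0 ± 0.087 for PARP9, -0.46 ± 0.070 for DTX3L and -0.36 ± 0.11 for PARP14 (adjusted p = 0.00644). The PARP14 call in that comparison was lost without oxamate and lactate replicate 2 (-0.26, adjusted p = 0.118), and its size was -0.55 with upper quartile normalization. PARP9 and DTX3L share 217 exon bases on opposite strands, around the site printed above, so a small part of their reads cannot be told apart.

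SAMD9 restrains poxvirus replication and cell growth. It was at 20.3 and 21.0 CPM with oxamate and lactate, at 26.6 and 27.5 CPM with oxamate, at 133 and 132 CPM in hypoxia alone, and at 132 and 128 CPM in normoxia. The libraries with oxamate were far below the others, while hypoxia alone and normoxia nearly met. SAMD9 fell with oxamate over hypoxia alone (-2.29 ± 0.047, adjusted p = 3.92e-21), 4.90 times lower. It fell further with lactate and oxamate over oxamate (-0.39 ± 0.061, adjusted p = 7.78e-06). Hypoxia over normoxia gave 0.03 ± 0.039 (adjusted p = 0.534), which passed only with upper quartile normalization among the alternatives run (0.13, adjusted p = 0.00402). Its neighbour SAMD9L had at most 7 counts in any library.

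TRIM21, a cytosolic receptor for antibody-coated virus, was at 13.7 and 13.5 CPM with oxamate and lactate, at 7.78 and 7.69 CPM with oxamate, at 13.2 and 12.5 CPM in hypoxia alone, and at 14.1 and 13.9 CPM in normoxia. The level with oxamate was far below those of the other 3 groups, which lay between 12.5 and 14.1 CPM. TRIM21 fell with oxamate over hypoxia alone (-0.73 ± 0.096, adjusted p = 4.42e-07) and was higher with lactate and oxamate than with oxamate (0.81 ± 0.099, adjusted p = 1.92e-07). With oxamate and lactate over hypoxia alone the difference was 0.08 ± 0.091 (adjusted p = 0.403), and it was -0.18 with upper quartile normalization. TRIM22, which restricts retroviral transcription, had 4 and 2 counts with oxamate and lactate, 11 and 10 with oxamate, 21 and 38 in hypoxia alone, and 7 and 11 in normoxia. It rose in hypoxia over normoxia (1.72 ± 0.49, adjusted p = 0.00351), a call lost without normoxia replicate 1 (1.54, adjusted p = 0.0509) or hypoxia replicate 2 (1.21, adjusted p = 0.13). Its fall with oxamate over hypoxia alone (-1.29 ± 0.48, adjusted p = 0.0185) was lost with DESeq2 and without hypoxia replicate 2 (-0.77), oxamate replicate 1 (-1.22) or oxamate replicate 2 (-1.15). Lactate with oxamate over oxamate gave -1.57 ± 0.69 (adjusted p = 0.0511), which passed with RLE size factors (-1.63), upper quartile normalization (-1.76) and without oxamate and lactate replicate 1 (-2.29).

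SP100, a component of PML nuclear bodies, was at 124 and 120 CPM with oxamate and lactate, at 106 and 106 CPM with oxamate, at 97.6 and 99.3 CPM in hypoxia alone, and at 56.4 and 52.2 CPM in normoxia. Normoxia was the lowest group by a wide margin. SP100 rose in hypoxia over normoxia by 0.86 ± 0.045 (adjusted p = 8.3e-14). Its difference for oxamate over hypoxia alone was 0.11 ± 0.042 (adjusted p = 0.0259), a call that ended with upper quartile normalization (0.039), without a count filter (0.080), and without hypoxia replicate 1 (0.096) or replicate 2 (0.12). That difference was 0.19 with RLE size factors or DESeq2, 0.21 with only the compared groups fitted, and 0.215 without oxamate replicate 1 or 0.213 without oxamate replicate 2. For lactate with oxamate over oxamate it was 0.20 ± 0.043 (adjusted p = 0.000296), a call that ended with upper quartile normalization (0.0080), with the stricter count filter (0.081), and without oxamate replicate 1 (0.099) or replicate 2 (0.10). With oxamate and lactate over hypoxia alone it was 0.30 ± 0.042 (adjusted p = 1.01e-06), lost with upper quartile normalization (0.046).

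Among the other effectors, LGALS3BP was at 198 and 213 CPM with oxamate and lactate, at 306 and 300 CPM with oxamate, at 217 and 212 CPM in hypoxia alone, and at 266 and 268 CPM in normoxia. It was high with oxamate and in normoxia, as USP18 was. LGALS3BP fell in hypoxia over normoxia (-0.31 ± 0.035, adjusted p = 4.36e-08; -0.21 with upper quartile normalization), rose with oxamate over hypoxia alone (0.50 ± 0.035, adjusted p = 1.33e-11) and fell with lactate and oxamate over oxamate (-0.56 ± 0.036, adjusted p = 5.13e-12). With oxamate and lactate over hypoxia alone it did not pass (-0.06 ± 0.036, adjusted p = 0.135), but it did with upper quartile normalization (-0.32), the stricter count filter (-0.14) and without oxamate and lactate replicate 2 (-0.11). DDX60, a helicase that promotes RNA sensing, averaged 4.22 ± 0.718 CPM with oxamate and lactate, 3.63 ± 0.757 CPM with oxamate, 9.28 ± 0.0778 CPM in hypoxia alone and 3.63 ± 0.49 CPM in normoxia (SD). DDX60 rose in hypoxia over normoxia (1.36 ± 0.16, adjusted p = 7.93e-08) and fell with oxamate over hypoxia alone (-1.35 ± 0.16, adjusted p = 8.98e-08). IFI35, a partner of the adaptor NMI, was lowest with oxamate and lactate and fell over oxamate (-0.90 ± 0.13, adjusted p = 2.49e-06). Its call in hypoxia over normoxia (-0.28 ± 0.12, adjusted p = 0.0353) was lost with upper quartile normalization, without a count filter, with the stricter filter and with DESeq2, and without normoxia replicate 2 (-0.17), hypoxia replicate 1 (-0.24) or hypoxia replicate 2 (-0.33). IFI35 with oxamate over hypoxia alone gave 0.36 ± 0.12 (adjusted p = 0.00801), a call lost without hypoxia replicate 1 (0.32, adjusted p = 0.0571). IFI6, an inhibitor of flavivirus replication, had 12 and 11 counts with oxamate and lactate against 30 and 29 with oxamate (-1.15 ± 0.41, adjusted p = 0.0179). That call was lost with DESeq2 (adjusted p = 0.0787) and without oxamate and lactate replicate 2 (-0.92, adjusted p = 0.131). IFI27 and IFI44 passed in none of the 4 comparisons.

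The 4 comparisons can now be read over the whole set. They share libraries: hypoxia alone enters 3 of them, and each group with oxamate enters 2. Values of one gene in different comparisons are therefore not independent of each other.

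Hypoxia over normoxia asked what low oxygen changed without drug. IFIT1, TRIM22, IRF9, DDX60 and OAS1 showed the largest rises, with log2 fold changes of 1.33 to 2.01. RSAD2 (-0.91), IFIT5 (-0.79), IFIT3 (-0.77) and USP18 (-0.66) fell. Of the 31 tested genes, 13 rose and 9 fell at an adjusted p under 0.05 in edgeR's quasi-likelihood test. Together they make 22 of 31, beside a background of 73.5% of all 15554 tested genes, 36.7% higher and 36.8% lower. The set was thus called about as often as any gene, and its median log2 fold change was 0.13, against 0.02 over all tested genes. Upper quartile normalization shifted the median of all tested genes by 0.105, and with it 16 rose and 6 fell.

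Oxamate over hypoxia alone asked what oxamate changed in hypoxic cells. IRF9 (-2.68), IFIT1 (-2.61), SAMD9 (-2.29) and IFIT5 (-1.92) fell most, and OASL (1.77), RSAD2 (1.13), ISG15 (1.03) and USP18 (0.91) rose most. Of 31 tested genes, 11 rose and 15 fell, beside backgrounds of 35.7% higher and 44.8% lower, or 80.5% in either direction. The median was -0.26, against -0.20 over all tested genes. The median of the absolute log2 fold change was 0.98, against 0.87 over all tested genes. So the genes moved both ways, in shares close to those of all tested genes.

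Lactate with oxamate over oxamate asked what added lactate changed. HERC5 (1.98), IRF9 (1.64), IFIT5 (1.18) and RSAD2 (1.11) rose most, while IFI6 (-1.15), IFITM2 (-1.04) and PARP9 (-1.0) fell most. Of 31 tested genes, 10 rose and 13 fell, beside backgrounds of 33.2% higher and 31.7% lower, or 64.9% in either direction. The median was 0.09, against -0.02 over all tested genes. Upper quartile normalization shifted the median of all tested genes by -0.191 in this comparison, and with it 7 of the genes rose and 14 fell, while 39.6% of all calls were higher, against 51.2% with TMM.

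Oxamate with lactate over hypoxia alone set the combined treatment against untreated hypoxic cells. TRIM22 (-2.86), SAMD9 (-2.68), MX1 (-2.24), IFITM1 (-2.09) and PARP9 (-2.02) fell most, and HERC5 (2.79), RSAD2 (2.24), OASL (2.06) and ISG15 (1.35) rose most. Of 31 tested genes, 7 rose and 16 fell, beside backgrounds of 38.5% higher and 40.2% lower, or 78.6% in either direction. The median was -0.44, against -0.05 over all tested genes. Upper quartile normalization shifted the median of all tested genes by -0.258, and with it 4 of the genes rose and 17 fell, while 37.8% of all calls were higher, against 48.9% with TMM. HERC6 (0.28 ± 0.11, adjusted p = 0.0271) rose in this comparison, but the call ended with upper quartile normalization (0.027), without a count filter, with the stricter filter, with DESeq2, when only the compared groups were fitted, and without hypoxia replicate 1 (0.30), hypoxia replicate 2 (0.28) or oxamate and lactate replicate 1 (0.16). OAS1 fell (-1.15 ± 0.39, adjusted p = 0.011), a call lost with DESeq2 and without hypoxia replicate 2 (-1.09) or oxamate and lactate replicate 2 (-1.09).

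**Figure D4:**
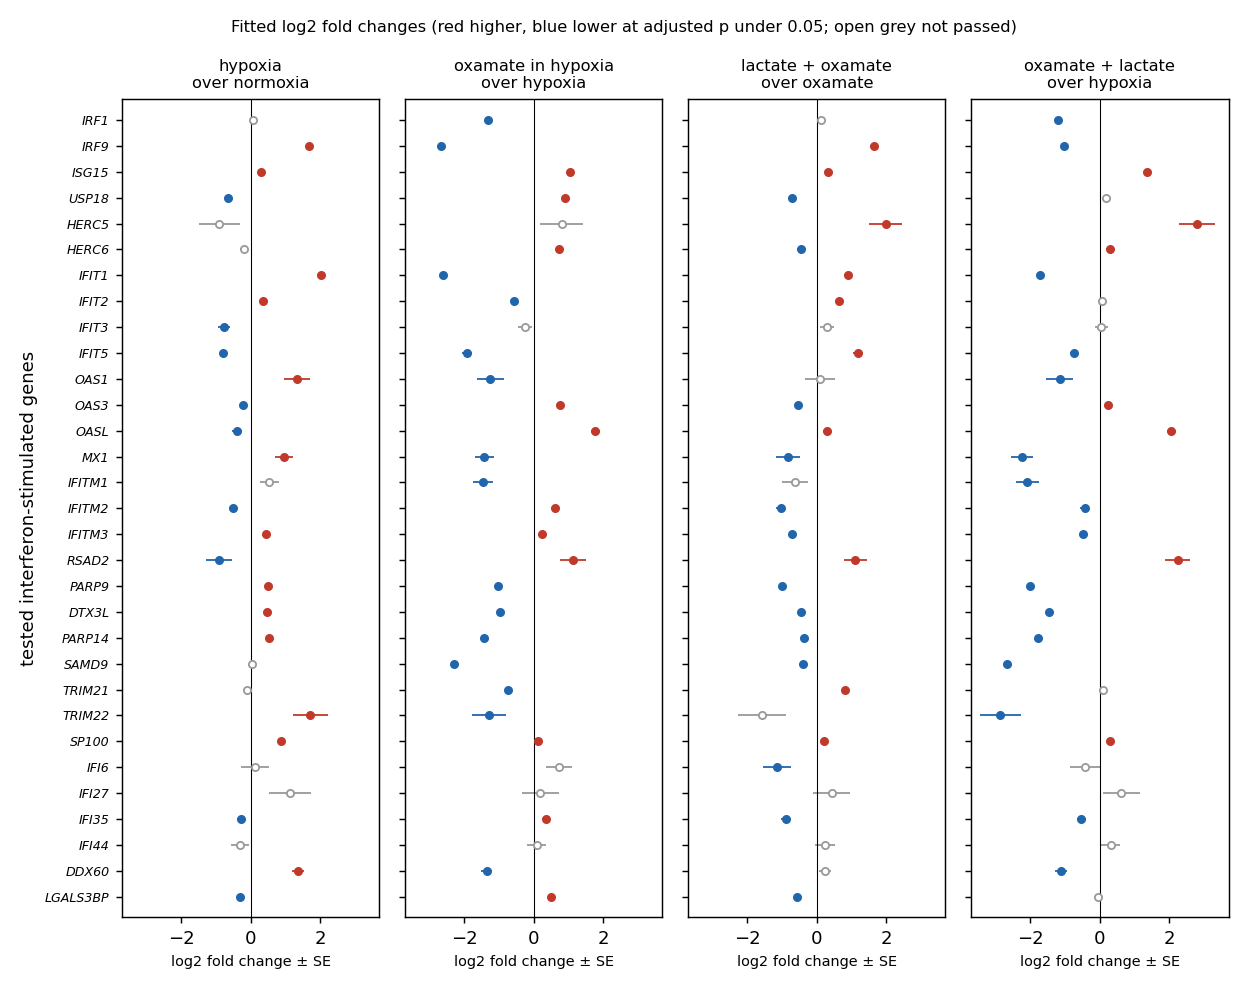
Fitted log2 fold changes ± SE of the 31 tested genes in 4 comparisons (panels), with 2 libraries per group. Red points rose and blue points fell at an adjusted p under 0.05, and open grey points did not pass; in oxamate over hypoxia alone the genes range from -2.68 (IRF9) to 1.77 (OASL).

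Summed over all 40 genes, the level was 1013 and 1084 CPM with oxamate and lactate, 1447 and 1431 CPM with oxamate, 1425 and 1405 CPM in hypoxia alone, and 1211 and 1221 CPM in normoxia. IFITM3 alone made up 34.0% to 46.9% of that sum. Without IFITM3 and LGALS3BP the sum was 437 and 434 CPM with oxamate and lactate, 463 and 465 CPM with oxamate, 633 and 633 CPM in hypoxia alone, and 534 and 524 CPM in normoxia. Oxamate and hypoxia alone were thus close in the full sum and apart once those abundant genes were left out. Both genes left out were highest with oxamate. A large part of the gap that remained lay in SAMD9, at a mean of 132.5 CPM in hypoxia alone and 27.0 CPM with oxamate. OAS3 went the other way, at 74.1 and 125.3 CPM, so the gap does not describe every gene of the rest.

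Interferon genes themselves were nearly silent. Of 9 genes for interferon ligands (IFNB1, IFNL1, IFNL2, IFNL3, IFNE, IFNK, IFNA1, IFNA2 and IFNG), 5 had 0 counts in every library, IFNB1 and IFNG among them. The others summed to 16 counts over all libraries, with at most 4 in any one. Of the receptor genes, IFNLR1, the specific chain of the type III receptor, had 0 counts in every library. IFNAR1, a chain of the type I receptor, was at 24.2 and 21.0 CPM with oxamate and lactate, at 22.8 and 21.3 CPM with oxamate, at 49.5 and 49.8 CPM in hypoxia alone, and at 54.7 and 55.7 CPM in normoxia. IFNAR1 fell with oxamate over hypoxia alone (-1.17 ± 0.064, adjusted p = 1.52e-13). IFNAR2, the other chain, was at 6.41 and 6.89 CPM with oxamate and lactate, at 9.99 and 11.0 CPM with oxamate, at 12.7 and 12.8 CPM in hypoxia alone, and at 16.3 and 17.5 CPM in normoxia. IL10RB, shared by the type III and interleukin-10 receptors, rose in hypoxia over normoxia (1.79 ± 0.075, adjusted p = 1.86e-15) and fell with oxamate over hypoxia alone (-1.79 ± 0.077, adjusted p = 1.65e-15). IFNGR1, of the interferon gamma receptor, was higher with lactate and oxamate than with oxamate (1.28 ± 0.068, adjusted p = 2e-13), and IFNGR2 gave 0.19 ± 0.062 there (adjusted p = 0.00931). All 5 tested receptor genes fell with oxamate over hypoxia alone, beside the background of 44.8% lower. In hypoxia over normoxia 2 rose and 2 fell, beside 36.7% higher and 36.8% lower. In lactate with oxamate over oxamate 2 rose and 1 fell, beside 33.2% higher and 31.7% lower. In oxamate with lactate over hypoxia alone 1 rose and 4 fell, beside 38.5% higher and 40.2% lower.

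STAT2, the partner of IRF9 in ISGF3, was at 33.0 and 33.3 CPM with oxamate and lactate, at 36.8 and 38.8 CPM with oxamate, at 68.0 and 65.8 CPM in hypoxia alone, and at 49.1 and 50.2 CPM in normoxia. STAT2 was highest in hypoxia alone, as IRF9 was, but lowest with oxamate and lactate, where IRF9 was above its level with oxamate. It rose in hypoxia over normoxia (0.43 ± 0.048, adjusted p = 4.54e-08) and fell with oxamate over hypoxia alone (-0.82 ± 0.051, adjusted p = 1.26e-12). Lactate with oxamate over oxamate gave -0.19 ± 0.057 for STAT2 (adjusted p = 0.00661). Of the kinases, JAK1 rose with oxamate over hypoxia alone (0.31 ± 0.041, adjusted p = 6.02e-07), as did TYK2 (0.39 ± 0.064, adjusted p = 2.11e-05), and JAK2 fell (-0.58 ± 0.13, adjusted p = 0.000476).

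Inhibitors and sensors of the pathway were measured beside it. Of 6 genes for inhibitors of the pathway, 3 rose and 3 fell in hypoxia over normoxia, beside backgrounds of 36.7% higher and 36.8% lower. In oxamate over hypoxia alone 1 rose and 4 fell, beside 35.7% higher and 44.8% lower. In oxamate with lactate over hypoxia alone 3 rose and 2 fell, beside 38.5% higher and 40.2% lower. In lactate with oxamate over oxamate 5 rose and none fell, beside a background of 33.2% higher. PIAS1, an inhibitor of activated STAT proteins, averaged 74.3 CPM with oxamate and lactate and 15.7 CPM with oxamate (2.24 ± 0.064, adjusted p = 4.16e-18). PTPN1, a phosphatase that acts on JAK2 and TYK2, averaged 129 CPM with oxamate and lactate and 55.6 CPM with oxamate (1.21 ± 0.046, adjusted p = 4.34e-16). Of 9 tested sensing genes, 3 fell and 2 rose in hypoxia over normoxia, beside backgrounds of 36.8% lower and 36.7% higher. In oxamate over hypoxia alone 7 fell and 1 rose, beside 44.8% lower and 35.7% higher. In oxamate with lactate over hypoxia alone 6 fell and 1 rose, beside 40.2% lower and 38.5% higher. In lactate with oxamate over oxamate 5 fell and 2 rose, beside backgrounds of 31.7% lower and 33.2% higher. IRF3, the factor that switches on interferon genes, fell (-0.52 ± 0.061, adjusted p = 1.3e-07). TBK1, the kinase that activates IRF3, averaged 99.9 CPM with oxamate and lactate and 21.2 CPM with oxamate (2.24 ± 0.060, adjusted p = 1.44e-18). TBK1 averaged 59.5 CPM in hypoxia alone, and it fell with oxamate (-1.49 ± 0.062, adjusted p = 8.85e-16). MAVS, the mitochondrial adaptor of RNA sensors, fell with oxamate over hypoxia alone (-1.06 ± 0.048, adjusted p = 4.71e-15). In hypoxia over normoxia CGAS, the cytosolic DNA sensor, fell (-0.86 ± 0.074, adjusted p = 6.42e-10) and STING1, the adaptor below it, rose (0.95 ± 0.10, adjusted p = 3.05e-08). Of 44 further interferon-stimulated genes that are not among the 40, 36 were tested. In hypoxia over normoxia 15 of them rose and 16 fell, beside backgrounds of 36.7% higher and 36.8% lower. Lactate with oxamate over oxamate gave 7 that rose and 19 that fell, beside 33.2% higher and 31.7% lower. Oxamate with lactate over hypoxia alone gave 10 that rose and 20 that fell, beside 38.5% higher and 40.2% lower. With oxamate over hypoxia alone 14 of them rose and 16 fell, beside backgrounds of 35.7% higher and 44.8% lower. APOL2, an apolipoprotein L gene, fell (-3.36 ± 0.097, adjusted p = 1.35e-18). PNPT1, a mitochondrial RNA exonuclease, rose (2.05 ± 0.055, adjusted p = 4.51e-19), followed by LAP3, an aminopeptidase (1.77 ± 0.049, adjusted p = 7.18e-19). Of 15 genes of MHC class I and antigen processing, 10 rose and 2 fell in hypoxia over normoxia, against the backgrounds just given. In oxamate over hypoxia alone 6 rose and 6 fell, and in oxamate with lactate over hypoxia alone 4 rose and 7 fell. In lactate with oxamate over oxamate 10 fell and 2 rose, beside backgrounds of 31.7% lower and 33.2% higher. TAP2, part of the peptide transporter, was among those that fell (-0.66 ± 0.049, adjusted p = 7.09e-11).

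Promoter letters were then set beside the changes. An ISRE-like match was found in 27 of the 43 windows of the 40 genes (62.8%), against 3.57% of all 35116 windows in the RefSeq table. A GAS-like match was in 12 of 43 (27.9%), against 7.66% of all windows. A hypoxia response element core was in 14 of 43 (32.6%), against 48.4% of all windows. Several genes have more than one window. The ISRE is the element through which such genes are classically induced, so its share describes the set and not a response in these cells. Of 20 tested genes with an ISRE-like match, 8 rose and 5 fell in hypoxia over normoxia, beside backgrounds of 36.7% higher and 36.8% lower, with a median of 0.22. Of 6 without one, 3 rose and 1 fell, with a median of 0.46. With oxamate over hypoxia alone, where backgrounds were 35.7% higher and 44.8% lower, 5 of the 20 rose and 10 fell (median -0.50), and 3 of the 6 rose and 3 fell (median -0.57). The values of genes with and without the match overlapped. Of 9 tested genes with a GAS-like match, 7 fell with oxamate over hypoxia alone and 1 rose (median -1.35). Of 17 without one, 6 fell and 7 rose (median 0.11), against the same backgrounds. The values overlapped, at -2.68 to 0.36 with a match and -2.61 to 1.13 without. In hypoxia over normoxia the medians were 0.96 with and -0.12 without a match, in lactate with oxamate over oxamate 0.09 and 0.20, and in oxamate with lactate over hypoxia alone -1.15 and 0.04. The 9 were IRF1, IRF9, OAS1, MX1, IFITM1, PARP14, IFI27, IFI35 and DDX60, and IFI35 was the gene that rose. Some of them were scarce, with MX1 at 1.59, IFITM1 at 1.58, OAS1 at 0.80 and IFI27 at 0.43 CPM over all libraries. In MX1, IFITM1 and IFI27 a GAS-like match overlaps an ISRE-like match, so the ISRE-like and GAS-like splits are not separate. Among 10 tested genes with a hypoxia response element core, 4 rose and 3 fell with oxamate over hypoxia alone (median 0.3). Among 16 without one, 4 rose and 10 fell (median -1.0), against the same backgrounds. Values overlapped, at -2.68 to 1.03 with a core and -2.61 to 1.13 without. Medians with and without a core were 0.05 and 0.48 in hypoxia over normoxia. They were 0.16 and -0.14 with lactate and oxamate over oxamate, and -0.01 and -0.93 with both over hypoxia alone. A match is a run of letters and was not shown to be bound in these cells.

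**Figure D5:**
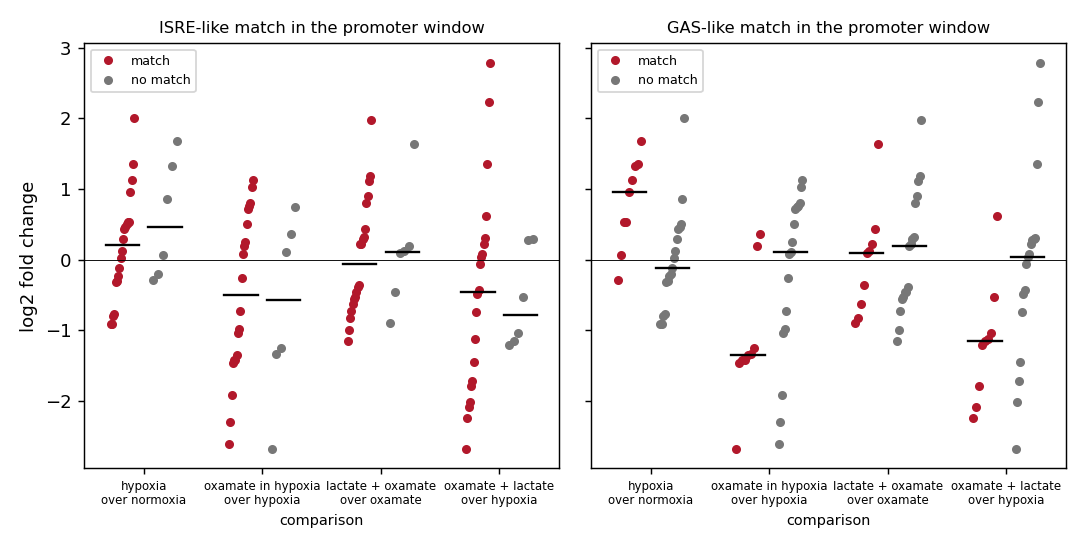
Log2 fold changes of tested genes with a RefSeq window, split by an ISRE-like match (left panel, 20 genes with and 6 without) or a GAS-like match (right panel, 9 with and 17 without) in 4 comparisons; points are genes and lines are medians. Values overlap in both splits in each comparison. Medians of the GAS-like split with and without a match are 0.96 and -0.12 in hypoxia over normoxia, and -1.35 and 0.11 in oxamate over hypoxia alone. They are 0.09 and 0.20 in lactate with oxamate over oxamate, and -1.15 and 0.04 in oxamate with lactate over hypoxia alone.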

How the data were processed

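The authors deposited raw counts per gene as whole numbers in 1 table. Per the submitters' processing notes, which assign no roles, the tools were FastQC 0.11.9, STAR 2.7.8a and RSEM 1.3.3, on hg38 (GRCh38). Annotation release, strandedness and any rounding were not stated. Genes were kept by filterByExpr (minimum count 10), scaled by TMM (factors 0.879 to 1.15) and fitted over all 8 libraries with edgeR 4.0.16 in R 4.3.3 (quasi-likelihood F test, two-sided, 4 group means, 4 residual degrees of freedom, Benjamini-Hochberg adjustment over 15554 genes, threshold 0.05). The standard error was taken from the F statistic. The method was tested on simulated data in which 200 genes changed. That is far fewer than were called here, so scaling under such wide change was not tested. Exon lengths and overlaps came from GENCODE release 29. The 40 genes and the other gene lists were chosen with earlier results of these data known. Any of the 40 could be named, and values per library are given where the mean log2 CPM reached 3 and for the 3 largest changes per comparison, and for others where a call depends on few counts, which were chosen after their values were seen. Replicates differed by more than sampling noise. Chi-square per degree of freedom was 4.83 with oxamate and lactate, 2.03 with oxamate, 2.11 in hypoxia alone and 1.85 in normoxia. The fit shares a spread per gene over all groups, so SE and p-values that involve oxamate and lactate may be too small. A count of 0 is read against a floor of 3 counts, which covers counting error only. As alternatives, TMM was replaced by RLE or upper quartile scaling, the count filter was dropped or raised to 50 counts in 2 libraries, DESeq2 1.42.0 replaced edgeR, replicate number was added as a block, only the 2 compared groups were fitted, or each library was left out. Some genes of the pathway and marker lists are not reported here.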

Additional observations from a re-analysis of the deposited data

How the results depend on the processing

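Of 94 calls over 31 genes and 4 comparisons, 73 kept their direction and passed under every alternative that tested the gene, 21 were lost under at least 1, and 1 of these turned round. The number of passing genes stayed within 1.5 times the main count. Leaving out 1 library gave 17 to 23 passing genes in hypoxia over normoxia, 23 to 26 in oxamate over hypoxia alone, 19 to 23 in lactate with oxamate over oxamate and 21 to 23 in oxamate with lactate over hypoxia alone. With 1 library left in a group, that library is assumed to vary like the other groups. Genes that rose went to 6 with the stricter filter in lactate with oxamate over oxamate, where fewer genes were tested, and to 4 under both upper quartile scaling and the stricter filter in oxamate with lactate over hypoxia alone; the cause of the upper quartile value was not tested. That normalization shifted the median of all genes by 0.105, -0.068, -0.191 and -0.258 in the 4 comparisons. It turned IRF1 (-0.059) and OAS1 (-0.097) in lactate with oxamate over oxamate, and USP18 (-0.072), IFIT2 (-0.201), IFIT3 (-0.217), OAS3 (-0.032) and TRIM21 (-0.175) in oxamate with lactate over hypoxia alone, of which OAS3 alone had passed. The stricter filter turned IFIT2 (-0.025) and IFIT3 (-0.041) there. Leaving out a library turned only genes that had not passed. In hypoxia over normoxia IFI6 ran from -0.044 to 0.342. In oxamate over hypoxia alone IFI27 ran from -0.239 to 0.801 and IFI44 from -0.136 to 0.437, with -0.095 without oxamate replicate 2. In lactate with oxamate over oxamate OAS1 ran from -0.375 to 0.474, IFI44 from -0.115 to 0.426, DDX60 from -0.071 to 0.384 and IRF1 from -0.017 to 0.143. In oxamate with lactate over hypoxia alone IFIT2 ran from -0.033 to 0.157 and IFIT3 from -0.20 to 0.279. The replicate block changed the call of MX1 in lactate with oxamate over oxamate, giving 22 passing genes there against 23, and left 22, 26 and 23 in the others; same-numbered libraries did not deviate together (correlations -0.103 to 0.058), so the numbers are not taken as pairs. IFI27, TRIM22 and HERC5, with 87, 104 and 108 counts over all libraries, are limited by depth.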
